A study of Mus musculus with 4 samples.

Results

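The cells described here are the immature thymocyte-like cells of the day 0 library, 691 of its 7350 kept barcodes (9.40%, exact binomial 95% interval 8.74 to 10.1%), out of 33732 barcodes kept over the 4 libraries of the series. Kept barcodes had 500 or more detected genes and mitochondrial UMIs of 15% or less, a UMI (unique molecular identifier) standing for a captured transcript. Members had at least 1 UMI of Dntt and Rag1 together, at least 2 UMIs of Trbc1 and Trbc2 together, at most 1 UMI of Camp and Prtn3 together and 0 UMIs of Cd79a. They were set against a comparator of 600 mature T and NK cells of the same library, which had at least 1 UMI of Trbc2, 0 of Dntt and Rag1, and either at least 1 UMI of Il7r (574 cells) or at least 2 of Nkg7 (148 cells). The 9 genes of these rules were used to choose the cells, so their values are given only as a description.

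The day 0 library held GFP-positive cells sorted from lungs of Gramd2creERT2;mTmG mice, the other 3 libraries organoids at days 8, 13 and 20. In such mice a tamoxifen-activated Cre under the Gramd2 driver, a gene of alveolar type I cells, switches a cell from membrane tdTomato to membrane EGFP. The organoids grew from sorted cells of that genotype in Matrigel on Transwell filters, with MLg fibroblasts (a mouse lung line) and SB 431542, an inhibitor of TGF-beta receptor signalling, and were enriched for EpCAM before capture. The labels name the cells of each library alveolar epithelial cells and their molecule nuclear RNA, although whole-cell suspensions were loaded. How many mice were used, their age, any pooling and the tamoxifen schedule are not stated in the labels. Because each day has 1 library, no test could be run: intervals below are exact Poisson or binomial 95% intervals of the summed UMIs or of the cells, and cover counting error only.

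T cells mature in the thymus, where RAG1 and RAG2 cut and join receptor gene segments and terminal deoxynucleotidyl transferase (Dntt) adds bases at the joints. A first checkpoint tests the beta chain paired with the invariant pre-TCR alpha chain (Ptcra) and is followed by a burst of division, after which cells carry CD4 and CD8 together and rearrange the alpha chain. Cells that pass selection end recombination, raise Il7r, Ccr7 and S1pr1 and leave for blood and tissues. Immature cells of this kind are known from the thymus and not as residents of the lung.

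The promoter windows of Dntt and Rag1, which chose these cells together with other genes, are shown beside those of Rag2 and Ptcra, outside the rule. They are from RefSeq (GRCm38.p6, the mm10 assembly) and run from 250 bases before to 50 after each transcription start, on the strand of the gene. Capitals mark E boxes (CANNTG, the letters bound by the E proteins Tcf3 and Tcf12, which reads the same on both strands). The windows are chr17:46763663-46763962 on the minus strand for Ptcra, chr2:101649483-101649782 on the minus strand for Rag1, chr2:101624462-101624761 on the plus strand for Rag2 and chr19:41029025-41029324 on the plus strand for Dntt.
Ptcra: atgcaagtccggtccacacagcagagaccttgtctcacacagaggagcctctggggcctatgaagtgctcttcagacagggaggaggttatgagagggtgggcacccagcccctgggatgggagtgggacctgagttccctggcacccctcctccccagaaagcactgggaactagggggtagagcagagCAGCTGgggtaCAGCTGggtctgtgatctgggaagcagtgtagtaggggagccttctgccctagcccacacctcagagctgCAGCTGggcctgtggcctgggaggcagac
Rag1: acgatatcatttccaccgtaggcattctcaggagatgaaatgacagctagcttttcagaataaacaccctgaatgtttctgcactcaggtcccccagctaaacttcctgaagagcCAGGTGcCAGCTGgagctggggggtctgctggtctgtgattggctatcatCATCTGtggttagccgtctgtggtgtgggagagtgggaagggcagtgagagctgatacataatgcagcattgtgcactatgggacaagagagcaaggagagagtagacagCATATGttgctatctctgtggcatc
Rag2: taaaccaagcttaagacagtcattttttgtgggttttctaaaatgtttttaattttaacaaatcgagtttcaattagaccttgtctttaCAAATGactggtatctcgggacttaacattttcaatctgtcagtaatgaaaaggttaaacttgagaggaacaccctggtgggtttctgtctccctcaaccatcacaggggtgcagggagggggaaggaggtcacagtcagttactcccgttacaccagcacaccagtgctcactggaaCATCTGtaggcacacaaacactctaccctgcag
Dntt: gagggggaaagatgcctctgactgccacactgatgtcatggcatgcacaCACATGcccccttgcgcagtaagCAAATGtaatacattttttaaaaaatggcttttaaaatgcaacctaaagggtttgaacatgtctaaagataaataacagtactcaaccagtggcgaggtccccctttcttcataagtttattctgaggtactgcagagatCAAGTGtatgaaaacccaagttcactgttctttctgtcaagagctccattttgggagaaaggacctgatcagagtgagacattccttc
The Ptcra window held 3 E boxes, all CAGCTG, the Rag1 window 4, the Rag2 window 2 and the Dntt window 3. Of 32544 RefSeq windows of the same length, 72.3% held at least 1 E box and 17.6% at least 3. The letters CTTTGA, the core bound by Tcf7 and Lef1, were in none of the 4 windows on either strand and in 16% of all windows. The ETS core GGAA was in all 4 windows and in 96% of all windows, counting both strands. A match is a description of the letters and not a binding site.

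Of the 7350 kept cells of day 0, 1071 held a UMI of Dntt or Rag1. Among these, 147 had no UMI of Trbc1 or Trbc2, 51 had 1 and 873 had at least 2. The rule then left out 6 cells for Camp or Prtn3 and 176 for Cd79a. Of the 691 members, 343 held both Dntt and Rag1, 162 held Dntt alone and 186 held Rag1 alone. The median was 3 UMIs of the pair per cell and the highest 32, and 178 members, about as many as the 176 with at least 6, had exactly 1. The members held 1499 of the 1999 Dntt UMIs and 1462 of the 2133 Rag1 UMIs of the library's kept cells.

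Cells next to the bounds of the rule showed these levels, in CPM (UMIs of a gene per 1000000 UMIs of the summed cells). The 178 members with exactly 1 UMI of the pair had 155 CPM of Arpp21, an RNA-binding phosphoprotein of immature thymocytes, against 359 CPM in the 176 members with at least 6. Cells that met every other bound but had no Dntt or Rag1 UMI (876 cells) had 34.7 CPM of Arpp21 and 663 CPM of Il7r. The 30 members with exactly 2 Trbc UMIs had 358 CPM of Cd8b1 and 239 CPM of Arpp21. The 44 cells with exactly 1 Trbc UMI, just outside, had 52.9 CPM of Cd8b1 and 68.1 CPM of Arpp21. The 176 cells left out for Cd79a had 306 CPM of Cd8b1, 175 CPM of Arpp21 and a median depth of 9729.5 UMIs. Of these 176 cells, 80.1% had at least 30 UMIs of the 11 myeloid genes named below, against 37.5% of members. Thymocyte genes were thus present on both sides of the Cd79a bound. They were at lower CPM just outside the Trbc bound. That contrast rests on 132209 summed UMIs in the 44 cells outside and 67007 in the 30 members inside, and no interval is given.

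The kept cells of the library had a median of 2558.5 UMIs. Members had a median of 3925 UMIs (674 to 47809) and 1724 genes, against 2973.5 UMIs and 1160 genes in the comparator. Median mitochondrial shares were 3.65% and 3.83%, and ribosomal protein genes took 21.2% of the UMIs in members and 28.0% in the comparator. Scgb1a1, the secretoglobin of airway club cells, had a UMI in 99.4% of members, 100% of the comparator and 100% of 295 B cells taken by Cd79a, so free RNA was present in this library. For the shares of cells below, the background is the share in 1858 non-haematopoietic cells with no Ptprc or Trbc UMI (median 2683.5 UMIs), which should lack T cell genes. Unless a depth is named, these shares are not thinned and are not matched for depth.

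Myeloid transcripts moved with depth inside the members. Over 11 myeloid genes (Lyz2, Csf1r, Cd68, Fcgr3, Itgam, Marco, Chil3, S100a8, S100a9, Retnlg and Csf3r), 259 members (37.5%, 33.9 to 41.2%) had at least 30 UMIs and 327 (47.3%) had at most 3. In the comparator 126 cells (21.0%, 17.8 to 24.5%) had at least 30, in the B cells 17.3% and in the non-haematopoietic cells 2.53%. Members with at least 30 such UMIs had a median depth of 7533 UMIs, and those with at most 3 a median of 1854. Scrublet's automatic threshold called 0 doublets in this library, so its calls were not used and no cell was removed as a doublet. Counts over gene lists are therefore also given below for the 327 members and 391 comparator cells with at most 3 myeloid UMIs, called low-myeloid cells here, a split chosen after seeing the data. The part of joint droplets in these values was not tested.

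**Figure D1:**
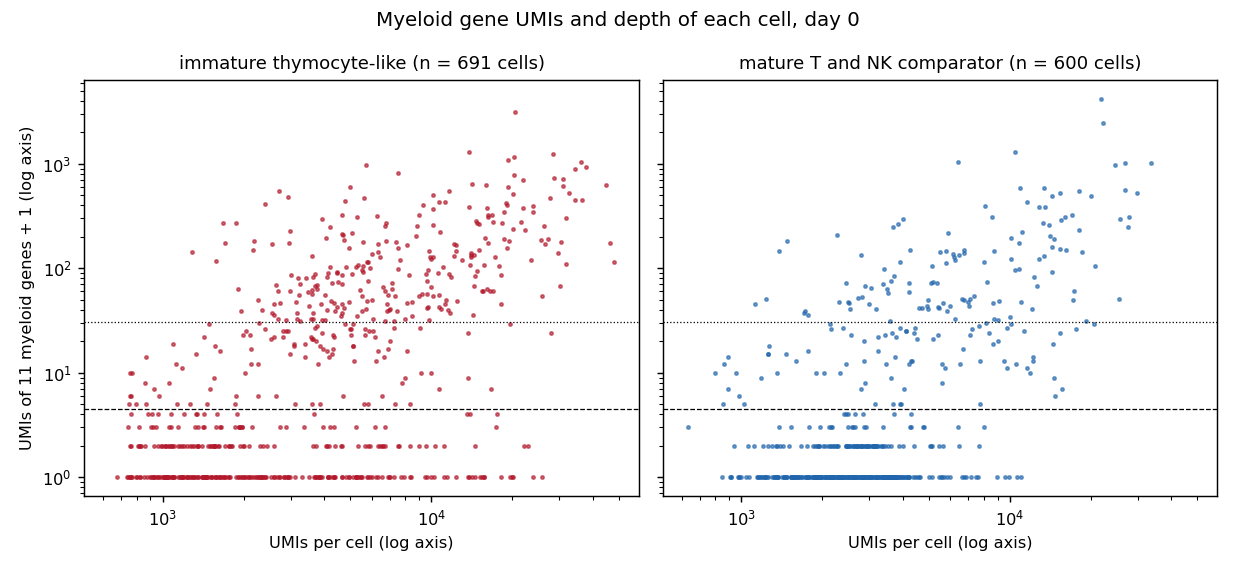
Each point is a cell of day 0, with its total UMIs on the x axis and its UMIs of 11 myeloid genes plus 1 on the y axis (both log scales), for the immature thymocyte-like cells (left) and the mature T and NK comparator (right). The dashed line bounds the cells with at most 3 myeloid UMIs (327 members, 391 comparator cells) and the dotted line those with at least 30 (259 and 126).

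Across all genes, 3323 passed the filter of 50 CPM and 20 UMIs in the larger set and were not among the genes of the rule. Of these, 205 (6.17%) were at least 2-fold higher in members and 81 (2.44%) at least 2-fold lower, and the median log2 ratio was 0.22. Among low-myeloid cells 922 of 3404 genes (27.1%) were higher and 354 (10.4%) lower, with a median log2 ratio of 0.44. The smaller lists were largely inside the larger: 198 genes were higher in both, 96.6% of the 205 and 21.5% of the 922, and 73 were lower in both, 90.1% of the 81 and 20.6% of the 354. The called shares, 6.17% and 2.44% of all tested genes, or 27.1% and 10.4% in low-myeloid cells, are the background for list counts below. A gene under 50 CPM in either set could pass only through the other set, so it could be called in that direction alone. With TMM scaling the counts were 145 higher and 109 lower, so that 57.1% of called genes were higher instead of 71.7%. The 12 highest ratios among abundant genes were those of H2-T3, Arpp21, Rrm2, H1f5, Xrcc6, Cdca3, Ctsl, Pclaf, H2ac24, Myb, Ube2c and Birc5. They hold thymocyte genes (H2-T3, Arpp21, Myb), genes of DNA synthesis and division (Rrm2, Cdca3, Pclaf, Ube2c, Birc5), histones (H1f5, H2ac24), a DNA-end joining factor (Xrcc6) and a lysosomal protease (Ctsl). The 12 lowest were those of Ngp, Ebf1, Ccl21a, Lcn2, Sftpa1, Ly6a, Ctla2a, Dapl1, Gimap4, Ms4a4b, Sftpc and S1pr1. Of these, Ccl21a, a chemokine of lymphatic vessels and lymphoid stroma, had 32.5 CPM in members against 167 CPM in the comparator, but was higher in members than in the Nkg7 arm of the comparator alone (log2 ratio 1.71).

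**Figure D2:**
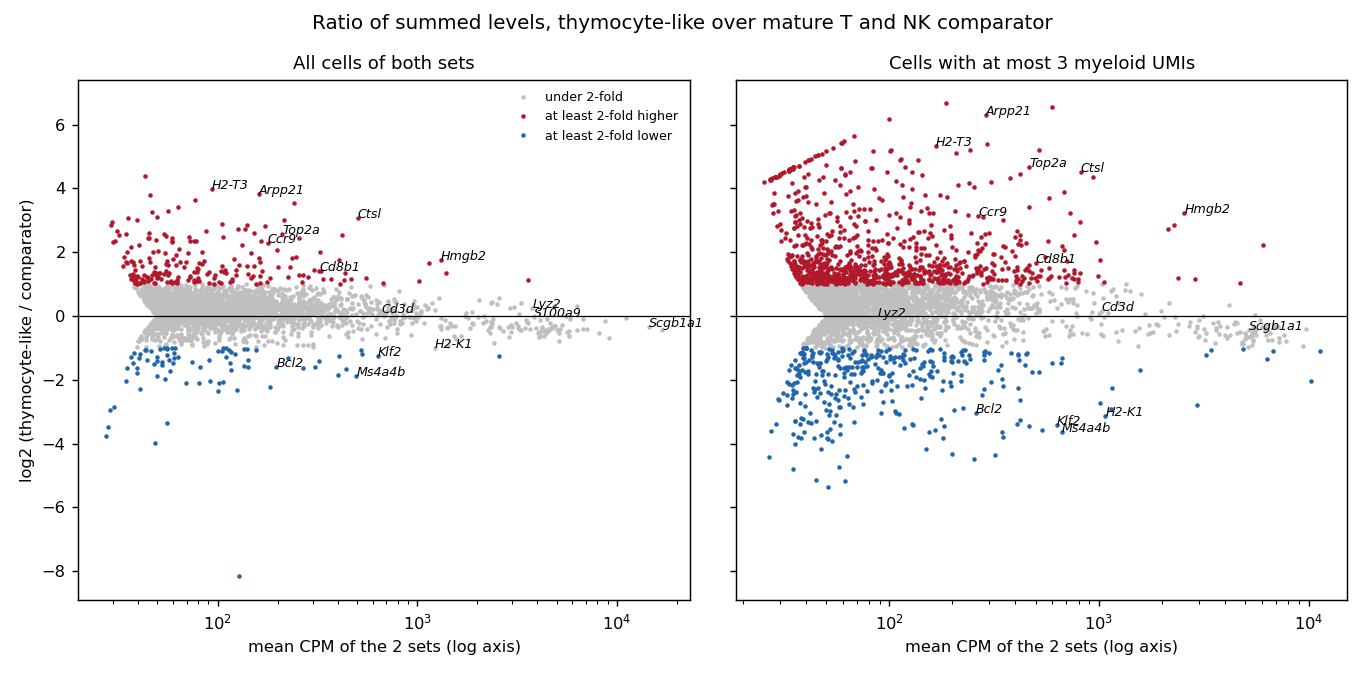
Every tested gene of day 0 is a point, with the mean CPM of both sets on the x axis (log scale) and the log2 ratio of thymocyte-like cells over the mature T and NK comparator on the y axis, for all cells (left) and for low-myeloid cells (right). Red points are at least 2-fold higher and blue points at least 2-fold lower (205 and 81 genes on the left, 922 and 354 on the right); the sloping line of points on the right is formed by genes under 3 UMIs in the comparator, which were set to 3.

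Recombination was the process the rule selected, and 3 of its other genes passed the filter and were higher. Dntt had 332 CPM and Rag1 324 CPM in members, and both were 0 in the comparator by construction. A UMI of Dntt was seen in 73.1% of members and 1.35% of non-haematopoietic cells, and of Rag1 in 76.6% and 1.40%. Rag2, the partner of Rag1 in the recombinase and no part of the rule, had 139 UMIs (30.8 CPM) in members against 8 UMIs (2.86 CPM) in the comparator, a log2 ratio of 3.43 (2.41 to 4.67). It was below the level of the 2-fold count in all cells and above it in low-myeloid cells, with 57.1 against 2.71 CPM. A Rag2 UMI was seen in 15.6% of members (13.0 to 18.6%), 1.33% of the comparator and 0.108% of non-haematopoietic cells. Rag2 thus separated the sets in cells chosen through its partner.

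The list of recombination and end-joining genes held 14 genes beside Dntt and Rag1, of which 3 passed the filter and all 3 were higher (median log2 ratio 1.76). Over all tested genes 6.17% were higher. Xrcc6, the Ku70 subunit that holds broken DNA ends, had 116 CPM in members against 10.7 in the comparator (log2 ratio 3.43, 2.90 to 4.02). Hmgb1 and Hmgb2 are DNA-bending proteins that assist RAG cleavage in biochemical assays, and Hmgb2 is also abundant in dividing cells. Hmgb1 had 1745 against 555 CPM and Hmgb2 2033 against 601 CPM. Lig4, the ligase that seals the joints, had 118 UMIs (26.1 CPM) in members and 11 (3.94 CPM) in the comparator, under the filter. In low-myeloid cells 4 genes of the list passed and all 4 were higher, Rag2 being the fourth, against 27.1% of all tested genes. Xrcc6 in all cells and Rag2 in low-myeloid cells were under 50 CPM in the comparator. They passed there only through the members and could not have been called lower.

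Trac and the genes of the CD3 complex were within 2-fold between the sets. Of the T cell receptor, pre-TCR and CD3 genes outside the rule, 5 passed the filter and 0 were 2-fold higher or lower (median log2 ratio 0.18). In low-myeloid cells 1 of 6 was higher, Ptcra, and 0 lower, against 27.1% and 10.4% of all tested genes. The signalling chain Cd3e had 341 CPM in members and 288 in the comparator (log2 ratio 0.24, 0.12 to 0.37), while Cd3d had 686 and 646 CPM and Cd3g 499.6 and 421 CPM. Cd247, the zeta chain, had 143 and 126 CPM. Trac, the constant region of the alpha chain, had 222 CPM in members and 260.1 CPM in the comparator (log2 ratio -0.23, -0.37 to -0.09), a difference past counting error and under 2-fold. Trbc1, used by the members' rule, and Trbc2, used by both rules, had 1797 and 2528 CPM in members against 672 and 1056 CPM in the comparator.

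Ptcra set the members apart from the comparator. It had 169 UMIs (37.4 CPM) in members against 2 UMIs (0.716 CPM) in the comparator, and the interval of the log2 ratio ran from 3.83 to 8.77. A Ptcra UMI was seen in 13.9% of members (11.4 to 16.7%), 0.333% of the comparator and 0.161% of non-haematopoietic cells. In low-myeloid cells it passed the filter and was called higher, at 87.7 CPM (106 UMIs) against 0.904 CPM (1 UMI). It passed there only through the members, so it could not have been called lower. Trdc, the constant region of the delta chain, lies inside the alpha locus and is lost from an allele that rearranges alpha. It was the tested gene of the gamma-delta list and was higher, with 93.0 CPM in members and 27.2 CPM in the comparator (log2 ratio 1.77, 1.42 to 2.15). With each cell thinned to 1000 UMIs its log2 ratio was 0.87, under 2-fold.

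The variable segments were read thinly, since these libraries capture the 3' end of a transcript. Members had 136 UMIs of Trbv segments in 115 cells, spread over 20 of the 35 segments in the feature list, and the most frequent, Trbv19, took 13 of them (9.56%, 5.19 to 15.8%). The comparator had 56 Trbv UMIs in 48 cells over 17 segments, with Trbv1 at 7 (12.5%, 5.18 to 24.1%). Members had 128 Trav UMIs over 44 of 130 segments, led by Trav13-1 with 11 (8.59%, 4.37 to 14.9%), and the comparator 84 over 39, led by Trav3-3 with 10 (11.9%, 5.86 to 20.8%). Members also had 19 Trdv UMIs over 5 of 6 segments, against 9 over 4 in the comparator. These counts are not scaled to the UMIs of all genes, 4517384 in members and 2794538 in the comparator. In low-myeloid cells Trdv had 4 UMIs over 3 segments in members and 9 over 4 in the comparator. The most frequent Trbv and Trav segments took a minor share in members and in the comparator, and 0 UMIs of Trbj or Traj features were counted in either.

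The co-receptors were higher in members, CD8 more than CD4. Cd8a had 387 CPM in members against 107 CPM in the comparator (log2 ratio 1.86, 1.68 to 2.04). Cd8b1, the beta chain of the CD8 heterodimer, had 469.7 against 178 CPM (log2 ratio 1.40, 1.26 to 1.55). Cd4 had 138 against 65.8 CPM (log2 ratio 1.07, 0.83 to 1.31), just past 2-fold, and was under 2-fold in low-myeloid cells (196 against 108 CPM, log2 ratio 0.85). It was also under 2-fold with TMM scaling and with the members' bounds on Cd79a, Camp and Prtn3 set on the comparator, and its lowest log2 ratio over all alternatives was 0.60. Of 17 tested co-receptor and proximal signalling genes, 4 were higher (Cd4, Cd8a, Cd8b1 and Themis) and 1 lower (Ptpn22), against 6.17% and 2.44% of all tested genes. In low-myeloid cells 4 of 18 were higher (Cd8a, Cd8b1, Themis and Lck), a share below the 27.1% of all tested genes, and 3 lower (Ptpn22, Fyn and Cd2), against 10.4%. Themis, a thymocyte protein that tunes receptor signalling, had 205 against 90.5 CPM, and Ptpn22, a phosphatase that restrains it, 88.8 against 182 CPM. The kinase Lck had 329.8 against 194 CPM and the adaptor Lat 299 against 216 CPM, both within 2-fold.

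Co-receptor classes of cells were counted after each cell was thinned to 1000 UMIs, which left out 55 members and 17 comparator cells. Both Cd4 and a Cd8 chain were seen in 14.2% of 636 members (11.5 to 17.1%) and 0.515% of 583 comparator cells (0.106 to 1.50%). Cd8 alone was seen in 39.6% of members (35.8 to 43.5%) and 24.4% of the comparator. Cd4 alone was seen in 4.25% of members (2.82 to 6.12%) and 8.23% of the comparator (6.13 to 10.8%). In the non-haematopoietic cells the class with both held 0 of 1759 cells (exact interval up to 0.209%), and Cd8 alone held 1.31%. Cells with both co-receptors were thus a feature of the members at matched depth, and cells with Cd4 alone were not. Without thinning, 44.6% of members held both. Among low-myeloid members the class with both was 24.4% (19.5 to 29.8%) and Cd8 alone 49.8%.

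**Figure D3:**
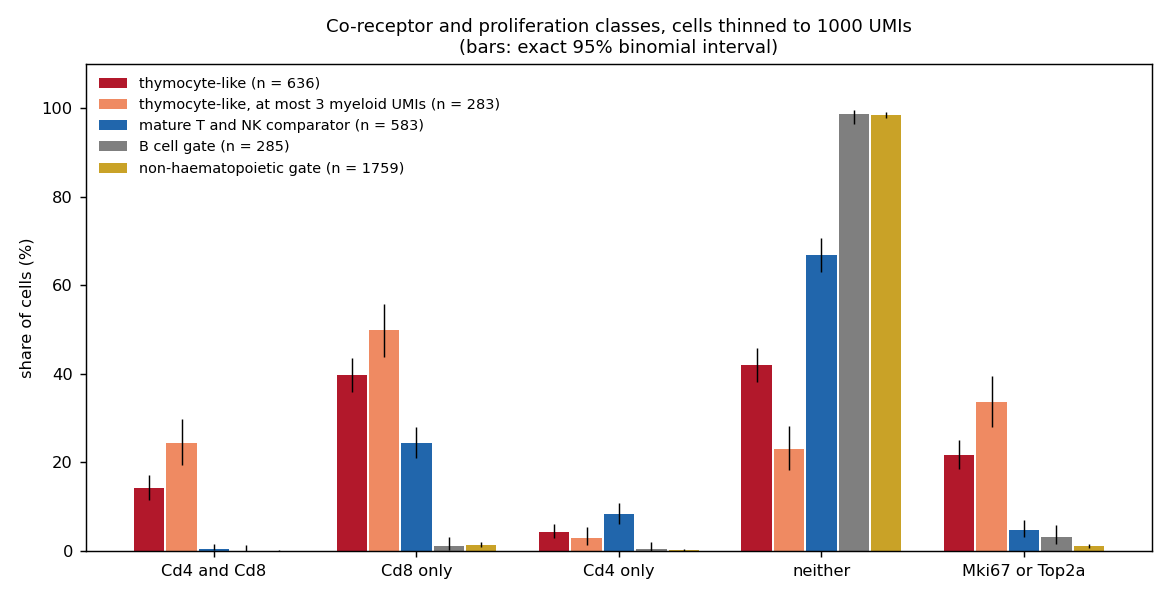
Bars give the share of cells with a UMI of Cd4 and of Cd8a or Cd8b1, of either kind alone, of neither, and of Mki67 or Top2a, after thinning each cell to 1000 UMIs, with exact 95% binomial intervals. Thymocyte-like cells stand above the mature T and NK comparator in the class with both co-receptors (14.2% against 0.515%) and in the proliferation class (21.7% against 4.80%), and low-myeloid members stand higher still.

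Transcription factors of the T lineage were measured next. Of 17 tested, 6 were higher in members (Tcf7, Satb1, Tcf12, Myb, Ets2 and Sox4) and 0 were lower, with a median log2 ratio of 0.60. Over all tested genes 6.17% were higher and 2.44% lower. Satb1, a chromatin organiser of thymocytes, had 914 CPM in members against 442 CPM in the comparator (log2 ratio 1.05, 0.96 to 1.14). Tcf7, the Notch-induced factor that specifies the T lineage, had 642 against 288 CPM (log2 ratio 1.16, 1.04 to 1.27). Satb1, Tcf7 and Themis came under 2-fold with TMM scaling, at log2 ratios of 0.87, 0.98 and 0.999. Larger ratios were those of Myb, needed in immature thymocytes, with 246 against 33.6 CPM (log2 ratio 2.87), and of Sox4, with 238 against 36.1 CPM (log2 ratio 2.72). The E protein Tcf12 had 203 against 81.2 CPM and Ets2 158 against 62.6 CPM.

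Other factors of the list were within 2-fold or under the filter. Bcl11b, the factor that locks T identity, had 403 against 221 CPM, and Ets1 484 against 636 CPM. Lef1 and Id2 had 197 against 372 CPM and 213 against 390.4 CPM, within 2-fold here and called lower in low-myeloid cells. In that subset 10 of 21 tested factors were higher and 3 lower, against 27.1% and 10.4% of all tested genes, so that the lower count is near the background. Of 4 tested Notch and early thymocyte genes, 0 were higher or lower; Notch1 had 68.6 CPM in members and 55.1 in the comparator, and Hes1, its target, 47.8 and 47.2 CPM. In low-myeloid cells 1 of 4 was higher, Hes1 (56.2 against 23.5 CPM), and 2 were lower, Cd44 (17.4 against 57.0 CPM) and Mef2c (7.44 against 76.8 CPM), with a median log2 ratio of -0.57. The higher count is near the 27.1% of all tested genes.

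Most tested genes known from the CD4 and CD8 double-positive stage were higher. Of 11 tested, 9 were higher and 2 lower (Slamf6 and Ly6d), with a median log2 ratio of 1.59, against 6.17% and 2.44% of all tested genes. Arpp21 had 300.2 CPM in members against 21.1 CPM in the comparator (log2 ratio 3.83, 3.45 to 4.23). H2-T3, the thymus leukaemia antigen, a class Ib molecule that binds CD8 alpha homodimers, stands outside the list and had 176 against 11.1 CPM (log2 ratio 3.98, 3.47 to 4.55). Without thinning, Arpp21 had a UMI in 65.1% of members, 6.67% of the comparator and 1.18% of non-haematopoietic cells. For H2-T3 these shares were 50.7, 4.67 and 1.13%. At 1000 UMIs per cell they were 32.7, 2.23 and 0.284% for Arpp21 and 20.4, 0.858 and 0.398% for H2-T3.

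Endou, an endoribonuclease gene, had 82.3 CPM in members (372 UMIs) against 3.94 CPM (11 UMIs), a log2 ratio of 4.39 (3.53 to 5.40). Ccr9, the receptor for the thymic chemokine CCL25, had 296 against 61.2 CPM (log2 ratio 2.28, 2.05 to 2.51), and its ligand gene Ccl25 was under the filter in both sets (15.7 and 16.5 CPM). Rmnd5a, a ubiquitin ligase subunit, had 277 against 54.0 CPM. Cd24a, a surface protein lost as thymocytes mature, had 175 against 71.2 CPM, and Bcl6 53.3 against 22.2 CPM. Slamf6 had 73.7 against 154 CPM, and Ly6d 34.8 against 85.9 CPM, Ly6d being within 2-fold in low-myeloid cells and higher against a comparator without Cd79a, Camp and Prtn3 (log2 ratio 1.52). In low-myeloid cells 10 of 12 were higher, Slamf6 was the gene called lower, and the median log2 ratio was 2.80.

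**Figure D4:**
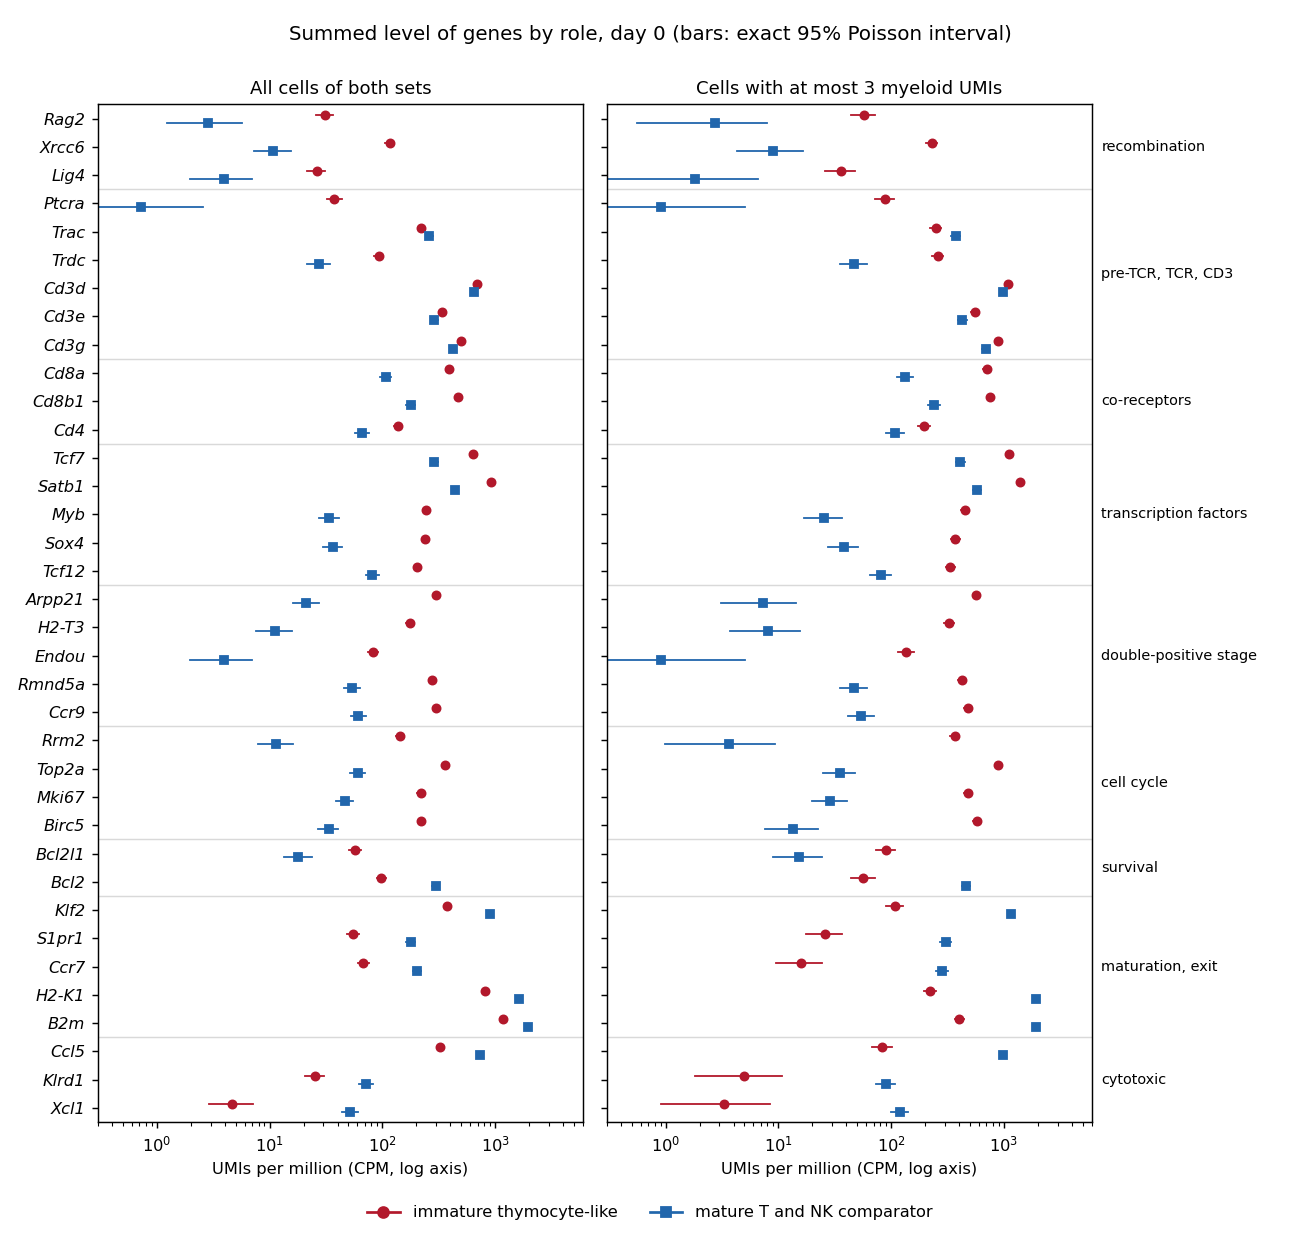
Summed levels in CPM (log axis) of genes by role in the thymocyte-like cells (red circles) and in the mature T and NK comparator (blue squares), with exact 95% Poisson intervals, for all cells (left) and low-myeloid cells (right). Genes of recombination, co-receptors, the double-positive stage and the cell cycle lie to the right in members, CD3 genes nearly coincide, and genes of maturation and exit lie to the left, with wider gaps on the right panel; points or bars at the left edge are cut there.

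The tested cell cycle genes were higher. All 12 tested S phase genes and all 15 tested G2 and M phase genes were higher in members, with median log2 ratios of 1.86 and 2.39. Over all tested genes 6.17% were higher. Slbp, the histone mRNA-binding protein gene, was close to 2-fold (log2 ratio 1.08) and under it with TMM scaling, among others. Rrm2, the ribonucleotide reductase subunit made in S phase, had 143 CPM in members against 11.5 CPM in the comparator (log2 ratio 3.64, 3.13 to 4.20). Top2a, the mitotic topoisomerase, had 361 against 60.8 CPM, and Mki67 218 against 46.2 CPM. Dut, which keeps uracil out of DNA, had 433 against 79.4 CPM, and Stmn1, a tubulin regulator, 715 against 122 CPM. In low-myeloid cells all 14 and all 18 tested were higher, against 27.1% of all tested genes, with medians of 3.22 and 3.98. Genes under 50 CPM in the comparator, such as Rrm2 and Mki67, passed only through the members and could not have been called lower. The whole S phase list summed to 385 CPM in the low-myeloid comparator, so this holds for many of its genes. The counts of these lists are thus set in part by the filter.

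Cells with a transcript of division were then counted. At 1000 UMIs per cell, 21.7% of members (18.6 to 25.1%) had a UMI of Mki67 or Top2a, against 4.80% of the comparator (3.21 to 6.87%), 3.16% of B cells and 1.02% of non-haematopoietic cells. Among low-myeloid cells the shares were 33.6% (28.1 to 39.4%) of members and 1.84% (0.742 to 3.75%) of the comparator. These shares depend on depth and on which cells are left out. At 2000 UMIs they were 37.8% of 479 members and 7.63% of 459 comparator cells. In low-myeloid cells they were 68.7% (60.6 to 76.0%) of 150 members and 2.92% of 274 comparator cells there. Shallower cells were left out, 177 of them low-myeloid members. Unthinned and with no cell left out, they were 35.6% of 691 members and 39.1% of 327 low-myeloid members. A cell without such a UMI is not shown to be out of the cycle.

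Genes of selection, exit and maturity went the other way. Of 15 tested genes of positive selection and thymic egress, 0 were higher and 9 lower (median log2 ratio -1.08). Over all tested genes 6.17% were higher and 2.44% lower. Klf2, the factor that drives egress, had 375 CPM in members against 892 CPM in the comparator (log2 ratio -1.25, -1.34 to -1.16). Its target S1pr1, the sphingosine-1-phosphate receptor that guides cells out of the thymus, had 55.1 against 178 CPM (log2 ratio -1.69, -1.92 to -1.47). Ccr7, a chemokine receptor of selected and naive T cells, had 67.7 against 202 CPM, and Cd69, raised on receptor signalling, 73.7 against 169.97 CPM. Nr4a1, another gene raised on receptor signalling, was within 2-fold (186 and 181 CPM), as was Egr1 (211 and 174 CPM). In low-myeloid cells 13 of 16 were lower, against 10.4% of all tested genes, and the median was -2.40. The comparator was chosen in part by Il7r, itself raised at this stage, so the size of these differences rests on that choice.

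Of 16 tested mature T cell and memory genes, 10 were lower and 0 higher (median log2 ratio -1.40), against 2.44% and 6.17% of all tested genes. Ms4a4b, a membrane protein of mature T cells, had 212 against 780.5 CPM (log2 ratio -1.88, -1.99 to -1.77), and Ltb, lymphotoxin beta, 175 against 469 CPM. Among the lowest ratios were also Dapl1 (41.2 against 172 CPM), Gimap4, a GTPase of mature lymphocytes (35.9 against 147 CPM), Ly6a (30.3 against 131 CPM) and Ctla2a (26.3 against 112 CPM). In low-myeloid cells 16 of 17 were lower, against 10.4% of all tested genes. Il7r, which chose 574 cells of the comparator, is itself an entry of this list. The size of these differences thus also rests on that choice. S100a4 and S100a6, memory genes also made by myeloid cells, were within 2-fold in all cells (501 against 744 CPM for S100a4) and lower in low-myeloid cells (72.0 against 746 CPM).

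Cytotoxic genes were lower in part. Of 9 tested, 4 were lower (Klrd1, Ccl5, Xcl1 and Ctsw) and 0 higher (median log2 ratio -0.63), and in low-myeloid cells 7 of 8 were lower. The lower shares over all tested genes were 2.44% and, in low-myeloid cells, 10.4%. The comparator's second arm was chosen by Nkg7, so NK-type genes are high in it by design. The chemokine Ccl5 had 323 CPM in members against 741 in the comparator. With at least 1000 genes per cell, with stricter granulocyte bounds (0 UMIs of Camp and Prtn3 and at most 2 of S100a8 and S100a9) or with the Il7r arm alone as comparator it was under 2-fold. Gzma, a granzyme, had 115 against 174 CPM, within 2-fold in all cells and in low-myeloid cells (153 against 132 CPM).

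The survival genes Bcl2 and Bcl2l1 were called in opposite directions. Bcl2l1, whose BCL-XL product keeps double-positive thymocytes alive, had 57.3 CPM in members against 17.9 CPM in the comparator (log2 ratio 1.68, 1.24 to 2.15). Bcl2, which takes over in mature T cells, had 97.8 against 297 CPM (log2 ratio -1.60, -1.77 to -1.43). The split was wider in low-myeloid cells, with 90.1 against 15.4 CPM for Bcl2l1 and 56.2 against 461 CPM for Bcl2. In all cells the other 6 tested genes of the survival list were within 2-fold, among them Mcl1 (580.2 and 541 CPM), Bax (137 and 136 CPM) and Bcl2l11 (65.5 and 69.8 CPM). In low-myeloid cells 2 of 9 were higher and 2 lower, Bcl2l1 and Bcl2 among them, against 27.1% and 10.4% of all tested genes. The higher count is near that background.

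Classical MHC class I genes were low in members once myeloid transcripts were set aside. In all cells 2 of 12 tested class I and interferon genes were lower (H2-Q7 and Ifi27l2a) and 0 higher, against 2.44% and 6.17% of all tested genes. In low-myeloid cells 9 were lower and 1 was higher, against 10.4% and 27.1% of all tested genes, and the median log2 ratio was -1.74. H2-K1, a classical heavy chain, had 221 CPM in low-myeloid members against 1927 CPM in low-myeloid comparator cells (log2 ratio -3.13, -3.31 to -2.94), but 818 against 1628 CPM in all cells. B2m, the light chain, had 404 against 1914 CPM in low-myeloid cells and 1176 against 1942 CPM in all. H2-D1 had 265 against 1757 CPM and 1202 against 1859 CPM. Psmb8, an immunoproteasome subunit, was within 2-fold in both (431 against 445 CPM in all cells). In members with at least 30 myeloid UMIs, H2-K1 stood at 1028 CPM and B2m at 1471 CPM.

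Homing receptors gave 1 higher gene, Ccr9, and 4 lower genes, among them Ccr7, S1pr1 and Itgb7, of 12 tested, against 6.17% and 2.44% of all tested genes; the higher count is near that background. Itgb7, a subunit of gut-homing integrins, had 61.5 CPM in members against 169 CPM in the comparator. In low-myeloid cells 1 was higher and 10 of 14 lower, against 27.1% and 10.4% of all tested genes. Of 14 tested immediate early and heat shock genes, which react to tissue dissociation, 0 were higher or lower; Fos had 785 CPM in members and 638 in the comparator, and Junb 835 and 863 CPM. In low-myeloid cells 1 was higher, Hsp90aa1 (1086 against 328 CPM), and 3 lower, against the same 27.1% and 10.4% of all tested genes.

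Markers of other cell types were read for the whole of each list. Over all tested genes 6.17% were higher and 2.44% lower, and in low-myeloid cells 27.1% and 10.4%. Of 10 tested myeloid and dendritic genes, 0 were higher or lower, and the summed level of the list was 5211 CPM in members, 4466 CPM in the comparator and 1494 CPM in non-haematopoietic cells. Lyz2, a lysozyme of myeloid cells, had 4095 CPM in members and 3469.98 CPM in the comparator, and 87.7 and 88.6 CPM in low-myeloid cells, where 1 of 3 tested genes of the list was lower (Bst2) and 0 higher. Of 7 tested granulocyte genes Chil3 was higher (1386 against 650.2 CPM, but 14.1 against 14.5 CPM in low-myeloid cells) and Ngp and Lcn2 lower; the members' bound on Camp and Prtn3, which the comparator lacks, bears on these. With the same bounds on the comparator, Lcn2 had a log2 ratio of 0.028 and Ngp of -0.66. S100a9 had 3818 CPM in members and 3901 in the comparator, and 13.2 and 5.42 CPM in low-myeloid cells, where no granulocyte gene passed the filter. Lyz2, Chil3 and S100a9 are among the genes whose UMIs chose the low-myeloid cells. Their low levels in both low-myeloid sets were thus set by that choice and are given only as a description. The choice also set, in part, how many genes of the myeloid and granulocyte lists were tested there.

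Of 5 tested B lineage genes, 3 were lower (Cd79b, Ebf1 and Ighd) and 0 higher, after members had been chosen without Cd79a. Over all tested genes 2.44% were lower and 6.17% higher. With the members' bounds on Cd79a, Camp and Prtn3 set on the comparator too, none of the 3 was 2-fold lower (log2 ratios 0.32 for Cd79b, -0.17 for Ebf1 and 1.97 for Ighd). In low-myeloid cells 5 of 6 were lower and 0 higher, against 10.4% and 27.1% of all tested genes. The members' bound on Cd79a was not set on that comparator. Cd74, an MHC class II chaperone of B and myeloid cells, had 7021 CPM in members and 5627 CPM in the comparator, and 384 and 952 CPM in low-myeloid cells. Of 7 tested lung epithelial genes, 2 were lower (Sftpc and Sftpa1) and 0 higher, and in low-myeloid cells 0 of 5 were higher or lower. These counts stand against the same shares of all tested genes. Sftpc, the surfactant protein of type II cells, had 174 CPM in members, 628 CPM in the comparator and 4722 CPM in non-haematopoietic cells. The type I genes Ager and Hopx had 187 and 162 CPM in members, 129 and 194 CPM in the comparator and 3156 and 2559 CPM in non-haematopoietic cells. The data thus go against the epithelial label for these cells, whose Ager level was close to that of the B cells (189.8 CPM). Against the Nkg7 arm of the comparator alone, Sftpc and Sftpa1 were higher and not lower (log2 ratios 1.49 and 1.56).

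Endothelial and stromal genes gave 1 lower gene of 2 tested (Cldn5, 20.1 against 55.5 CPM). In low-myeloid cells 1 was lower (Cldn5) and 1 higher (Acta2) of 3. Over all tested genes 2.44% were lower and 6.17% higher, and in low-myeloid cells 10.4% and 27.1%. Of 6 erythroid genes none passed the filter (summed level 1.55 CPM in members, 6.08 in the comparator). Among 9 genes of thymic epithelium and stroma, 4 had 0 UMIs in members: Foxn1 and Psmb11, which mark thymic epithelium, Aire and Krt5. The tested gene of that list was Ctsl, the cathepsin that thymic cortex uses for antigen processing, at 902 CPM in members against 108 CPM in the comparator (log2 ratio 3.06, 2.89 to 3.24). It is not a gene of stroma alone: B cells had 63.0 and non-haematopoietic cells 447 CPM, and a Ctsl UMI was seen in 86.1% of members, 24.8% of the comparator and 56.8% of non-haematopoietic cells. In low-myeloid members it stood at 1566 CPM against 68.7 CPM.

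The markers given for these cells, Dntt, Satb1, Cd8b1, Cd8a, Tcf7 and Trbc1, were all at higher levels in members than in the comparator, with Dntt and Trbc1 fixed by the rule. At 1000 UMIs per cell, Satb1 was seen in 60.5% of members and 37.7% of the comparator, Tcf7 in 51.3% and 29.8%, and Cd8b1 in 41.4% and 19.2%. Background shares in non-haematopoietic cells were 2.79, 2.39 and 0.682%. The name immature thymocyte-like was kept.

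Within the members, cells differed along depth. The low-myeloid members were split at 1500, 3000 and 6000 UMIs into 129, 89, 55 and 54 cells. Since a cell needed only 1 UMI of Dntt or Rag1, a shallow member had to have a high CPM of the pair, and their levels by depth are set in part by the rule. Genes outside the rule also changed over the 4 strata. Cd4 stood at 649.9, 367, 197 and 45.5 CPM in order of rising depth, and Trac at 657, 411, 258 and 107 CPM. These genes of the later, alpha-rearranging stage were highest in the shallowest cells.

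Genes of division and of the beta checkpoint ran the other way. Mki67 stood at 49.5, 246, 657 and 572 CPM over the same 4 strata, and Pcna, the DNA polymerase clamp, at 127, 219, 592 and 849 CPM. Trdc stood at 35.3, 87.6, 262 and 356 CPM. Ptcra had 7.06 CPM in the shallowest stratum, from 1 UMI, and 87.6, 88.7 and 105 CPM in the deeper ones. Cd8a differed less than Cd4, with 1293 CPM in the shallowest and 421 CPM in the deepest cells. Summed over cells, the deepest low-myeloid members thus had more Trdc, Mki67 and Pcna than the shallowest, and less Cd4, Trac and Cd8a. Such sums do not show which transcripts were in the same cell.

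**Figure D5:**
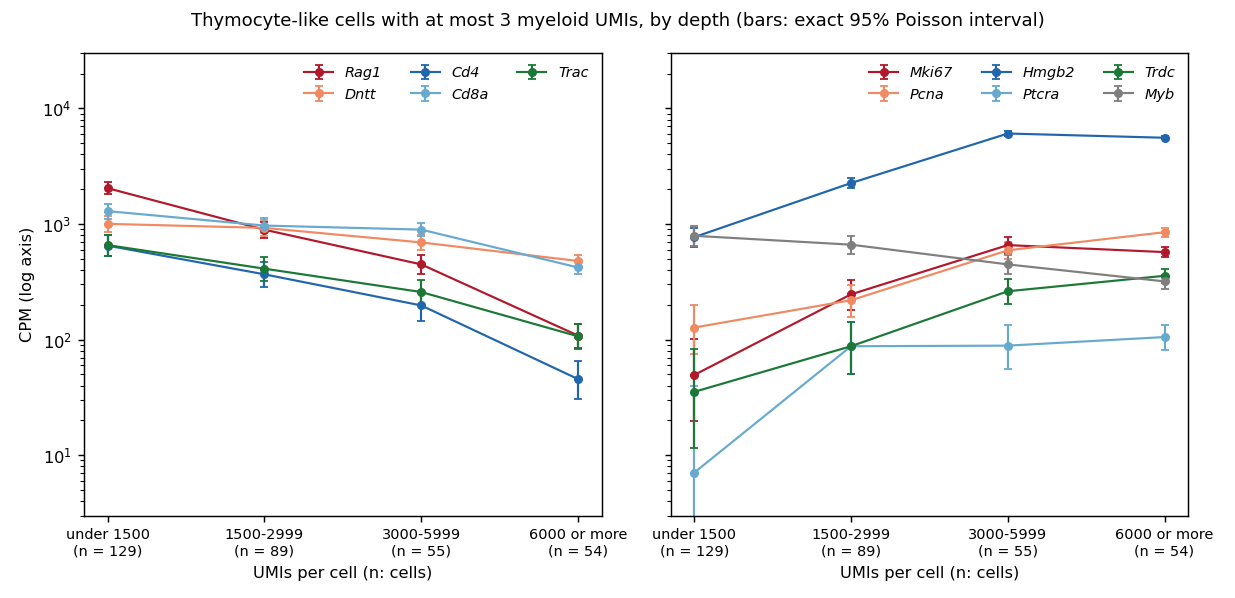
Levels in CPM (log axis) of 11 genes in the low-myeloid thymocyte-like cells of 4 depth strata (x axis, UMIs per cell, with the number of cells), with exact 95% Poisson intervals. Rag1, Cd4 and Trac are lower in deeper cells (left) and Mki67, Pcna, Hmgb2 and Trdc higher (right); the slope of Rag1 and Dntt is set in part by the rule that chose the cells.

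The same contrast appeared between low-myeloid members with and without a UMI of Mki67 or Top2a at 1000 UMIs, 95 cells with a median depth of 5257 UMIs and 188 cells with a median of 1623.5. Trdc had 329 CPM in the cells with such a UMI against 193 CPM in the others, Cd4 115 against 270.3 CPM and Trac 125 against 367 CPM. Ptcra was at 87.2 and 94.5 CPM, and Cd8a at 684 and 699 CPM, so neither differed much. Il7r, in the comparator's rule, had 20.2 against 181 CPM. Depth differed between these cells, and its part in these values was not tested.

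By the recombination gene they held, low-myeloid members also differed. The 84 cells with Dntt alone had 366 CPM of Trdc, 180.1 CPM of Trac and 96.8 CPM of Cd4. The 72 cells with Rag1 alone had 16.5, 404 and 404 CPM, and the 171 cells with both 245, 257 and 212 CPM. Cells with Rag1 alone were the shallowest (median 1195.5 UMIs, against 2330.5 with Dntt alone and 2104 with both). They also had 2026 CPM of Cd74, against 220.4 and 190.04 CPM in the others.

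The members with at least 30 myeloid UMIs kept thymocyte genes at lower CPM. Arpp21 was at 189 CPM in these 259 cells and 571 CPM in the low-myeloid members, Cd8b1 at 354 and 760.05 CPM, and Ccr9 at 223 and 478 CPM. Lyz2, among the genes that made this split, was at 6168 and 87.7 CPM. An Arpp21 UMI was seen in 20.8% (16.1 to 26.3%) of these 259 cells at 1000 UMIs, against 47.3% (41.4 to 53.3%) of the low-myeloid members, 2.23% of the comparator and 0.284% of non-haematopoietic cells.

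The reporter transcripts of these cells were mostly tdTomato, although the sort had selected EGFP as protein. EGFP had 66.4 CPM and tdTomato 254 CPM in members, against 57.6 and 214 CPM in the comparator and 468 and 248 CPM in non-haematopoietic cells. Of 288 members with at least 2 reporter UMIs, 11 (3.82%, 1.92 to 6.73%) had at least 80% EGFP and 186 (64.6%, 58.8 to 70.1%) at least 80% tdTomato. In the comparator these were 7 and 97 of 147 cells (4.76% and 66.0%), and in non-haematopoietic cells 349 and 328 of 885 (39.4% and 37.1%). In all cells EGFP did not differ between members and comparator past counting error (log2 ratio 0.21, -0.08 to 0.49) and tdTomato did (log2 ratio 0.25, 0.10 to 0.39), both under 2-fold. In low-myeloid cells EGFP was called higher, at 78.6 CPM (95 UMIs) against 32.5 CPM (36 UMIs; log2 ratio 1.27, 0.70 to 1.87), and tdTomato was at 229 against 135 CPM. Cells with at least 80% EGFP were 8 of 83 there (9.64%, 4.25 to 18.1%) against 1 of 37 (2.70%, 0.0684 to 14.2%), with overlapping intervals. Both sets lay below the non-haematopoietic cells in EGFP.

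In the organoid libraries the same rule found 0 of 7893 cells at day 8, 2 of 9311 at day 13 and 0 of 9178 at day 20. A count of 0 allows up to 0.0380% at day 8 and 0.0327% at day 20 by the floor of 3 cells, and up to 0.0467% and 0.0402% by the exact interval, and the count at day 13 is under the 0.0322% that 3 cells would give. The 2 cells of day 13 had 2101 and 6097 UMIs, 0 UMIs of Rag1, 1 and 4 UMIs of Dntt, 2 and 20 of Trbc and 0 of Arpp21. Barcodes shared with day 0 numbered 41, 37 and 25 in the libraries of days 8, 13 and 20, of which 1, 4 and 1 were members. Comparator cells by the same rule numbered 35, 12 and 81 in the 3 organoid libraries. Thymocyte-like cells were thus detected at day 0 and not above the counting floor later, in cultures enriched for EpCAM.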

How the data were processed

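Per the labels, 10x 3' v3.1 libraries were made from sorted cells (day 0) and organoids (days 8, 13 and 20), 1 library per day. The deposited matrices hold unnormalised UMI counts. The submitters' processing notes name Cell Ranger 7.0.1 and the mm10 build. Which annotation was counted, and whether the authors removed free RNA or doublets, is not given in the sources used here. Free RNA raises low levels in every cell set, and joint droplets mix 2 cells.

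From these counts, 8902 barcodes of day 0 (31850454 UMIs) were filtered to 7350 and the rule applied. UMIs were summed per cell set and scaled to that sum as CPM (Python 3.11.15, numpy 2.4.6, scipy 1.17.1). A gene was called at a ratio of at least 2-fold with at least 50 CPM and 20 UMIs in the larger set; a set under 3 UMIs was set to 3. Intervals are exact at 95% (Poisson for CPM, conditional Poisson for ratios, Clopper-Pearson for shares). A change in a few abundant genes shifts every CPM, so TMM scaling (edgeR 4.0.16) was an alternative. Cells were thinned to 1000 UMIs for the co-receptor and division classes and for shares stated at that depth. Other shares of cells with a UMI are not thinned. Doublet scores came from Scrublet in Scanpy 1.11.5, used only in an alternative that removed the 523 highest scores. The ratio script was tested on simulated counts.

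The members, the 24 gene lists and the comparisons were chosen with earlier results of these data known. Genes are named by rule: the 12 largest ratios each way at 100 CPM or more, up to 6 abundant members of each list and a set of key genes, some of which are not reported here. A further 13 list members, such as Endou and Sox4, were named after their values were seen. H2az1 was read for the list entry H2afz, and 4 gamma-delta entries had no matching feature. A gate for granulocytes by Camp and Prtn3 held 1 cell and was not used.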

Additional observations from a re-analysis of the deposited data

How the results depend on the processing

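No paired analysis was possible because each day has 1 library. The 19 alternatives changed the cells, the comparator, the scaling or the threshold; the low-myeloid settings and their combinations were added after seeing the data. The share of thymocyte-like cells was 8.39% with no cell filter, 10.2% with at least 1000 genes, 6.98% with at least 2 UMIs of Dntt and Rag1, 6.90% with stricter granulocyte bounds (0 UMIs of Camp and Prtn3 and at most 2 of S100a8 and S100a9) and 4.45% with at most 3 myeloid UMIs. Genes higher and lower, 205 and 81 as reported, numbered 324 and 136 with the stricter granulocyte bounds, 922 and 354 in low-myeloid cells, 481 and 149 with cells thinned to 1000 UMIs, 371 and 128 as a mean of CPM per cell, 435 and 144 at 20 CPM, 108 and 42 at 100 CPM and 88 and 32 at 3-fold. In low-myeloid cells they numbered 628 and 494 with TMM scaling, 765 and 297 thinned and 934 and 351 without the highest Scrublet scores. TMM moved all log2 ratios by -0.18, and by -0.25 in low-myeloid cells, where 56.0% of called genes were then higher. The share with Cd4 and Cd8, 14.2% as reported, was 10.1% with at least 1000 genes, 17.7% without the highest Scrublet scores, 17.9% with at least 2 UMIs of Dntt and Rag1, 20.8% with the stricter granulocyte bounds, 24.4% in low-myeloid cells and 44.6% unthinned. Cd8 alone, 39.6%, was 44.5% with at least 1000 genes and 44.5% with at least 2 UMIs of Dntt and Rag1, 43.8% with the stricter granulocyte bounds, 49.8% in low-myeloid cells and 51.4% at 2000 UMIs. Cells with Mki67 or Top2a, 21.7%, were 25.8% with at least 1000 genes, 26.0% with the stricter granulocyte bounds, 33.6% in low-myeloid cells, 37.8% at 2000 UMIs and 35.6% unthinned. The cause of these moves was not tested; the thresholds and thinning change the genes or UMIs counted by construction.

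Of 171 named genes 78 were called, and 69 kept their sign and 53 at least 2-fold in every setting with more than 3 UMIs on a side. Signs turned, as log2 ratios, for Ccl21a (1.71), Sftpa1 (1.56), Sftpc (1.49) and Cldn5 (0.53) against the Nkg7 arm alone. They turned for Lcn2 (0.028), Cd79b (0.32), Ighd (1.97) and Ly6d (1.52) with the members' bounds on the comparator, and for Sftpa1 (0.64), Sftpc (0.29) and Ly6d (0.50) in thinned low-myeloid cells. Chil3, itself among the genes that chose the low-myeloid cells, was at -0.041 in those cells and -0.29 with TMM there. Slbp, an S phase gene, was under 2-fold against the Nkg7 arm alone, thinned, as a mean of CPM per cell and with TMM (lowest 0.70). Depth limits the shares of cells with a UMI.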

Other observations

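Ighm, the heavy chain constant gene of IgM, was seen in members at 188 CPM and in the comparator at 216 CPM, although members have no Cd79a UMI. In low-myeloid cells it stood at 262 and 254 CPM, while Ms4a1, a surface gene of mature B cells, had 0.827 and 68.7 CPM and Ighd, made with Ighm in naive B cells, had 0 UMIs in the members and 53.3 CPM in the comparator. The comparator has no bound on Cd79a, so its levels of B cell genes rest in part on the rules. With the members' bounds set on the comparator in all cells, Ighd was higher in members (log2 ratio 1.97). Ighm was at 263 CPM in low-myeloid members with a UMI of Mki67 or Top2a at 1000 UMIs and 261 CPM in those without. Vpreb1, a surrogate light chain gene of immature B cells, had 5 UMIs in members and 0 in the comparator.

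The 131 kept cells with Dntt or Rag1 but no Trbc UMI, within the other bounds of the rule, had 209 CPM of Rag1 and 129 CPM of Dntt. Their levels of Cd8a (9.59 CPM), Arpp21 (14.4 CPM) and Ptcra (0 UMIs) were under those of the members. Notch3, a receptor that is high in early thymocytes and in pericytes, was at 57.5 CPM in them and 10.6 CPM in members.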
